A study of Mus musculus with 12 samples.

Results

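The interleukin-1 and interleukin-18 system was followed through 7 genes: the agonists Il1a, Il1b and Il18, the receptor antagonist Il1rn, and the receptor chains Il1r1, Il1rap and Il18rap. They were chosen by gene symbol, and all 7 were among the 248 inflammation-related genes measured by the nanostring approach, which counts colour-coded reporter probes bound to mRNA without amplification. The cells were blood monocytes (MNCs, 6 samples) and Kupffer cells, the resident macrophages of the liver (KCs, 6 samples), all from Balb/C mice, and no treatment was given in the labels. Every sample was a pool of cells from 5 mice by the labels, sorted with beads against F4/80, a macrophage surface protein. The paper's methods allow for slightly smaller pools in this assay. The livers had also been perfused and digested with collagenases, a step that the blood did not go through.

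IL-1α and IL-1β, the products of Il1a and Il1b, signal through the receptor IL-1R1 (Il1r1), which needs the accessory chain IL-1RAcP (Il1rap). The antagonist (Il1rn) occupies IL-1R1 without signalling. IL-18 binds its own receptor, of which Il18rap codes for the accessory chain that is found mainly on T and NK cells. IL-1β and IL-18 are made as inactive precursors and are cut in the inflammasome, so an mRNA level does not give the amount of active cytokine. In the liver, hepatocytes and endothelial cells carry IL-1R1, and Kupffer cells are a known source of IL-1 and IL-18.

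Il1r1 and Il18rap lie in the same receptor cluster of mouse chromosome 1, with the protein-coding genes Il1rl2, Il1rl1 and Il18r1 between them (GRCm38.p6). Il1a and Il1b are direct neighbours on chromosome 2, while Il1rn lies elsewhere on that chromosome. As Il1r1 and Il18rap were the 2 receptor chains that differed between the cell types, the 250 bases before their starts are shown from RefSeq (GRCm38.p6, plus strand). These are chr1:40224830-40225079 and chr1:40266336-40266585 for the 2 starts of Il1r1 and chr1:40515112-40515361 for Il18rap, and capitals mark the letters of a motif match.
Il1r1, start 1: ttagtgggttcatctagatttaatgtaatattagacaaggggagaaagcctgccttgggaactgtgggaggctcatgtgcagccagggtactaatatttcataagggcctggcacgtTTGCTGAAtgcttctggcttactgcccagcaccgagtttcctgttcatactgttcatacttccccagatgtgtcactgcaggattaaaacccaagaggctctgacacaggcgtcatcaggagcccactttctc
Il1r1, start 2: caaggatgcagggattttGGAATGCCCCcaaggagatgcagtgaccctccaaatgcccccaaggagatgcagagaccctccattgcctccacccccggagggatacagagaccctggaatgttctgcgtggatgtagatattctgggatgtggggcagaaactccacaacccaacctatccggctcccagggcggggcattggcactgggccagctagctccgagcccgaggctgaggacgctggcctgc
Il18rap: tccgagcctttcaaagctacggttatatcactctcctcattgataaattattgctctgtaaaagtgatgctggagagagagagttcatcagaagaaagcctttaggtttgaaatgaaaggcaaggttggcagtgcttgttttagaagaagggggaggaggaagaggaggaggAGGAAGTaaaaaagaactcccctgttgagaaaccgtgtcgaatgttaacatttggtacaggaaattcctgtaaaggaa
The motifs searched on both strands were NF-kB by its consensus, C/EBP (TTGCNNAA), AP-1 (TGANTCA) and PU.1 (AGGAAGT), and no window held more than 1 match. The first start of Il1r1 held a C/EBP match beginning 133 bases before the start, the second an NF-kB match at 232 bases, and Il18rap a PU.1 match at 78 bases. Of the other genes, Il1a held an AP-1 match at 12 bases and 1 start of Il1rn an AP-1 match at 141 bases. Of all 32851 windows of this length, 9.56% held C/EBP, 3.9% NF-kB, 6.75% AP-1 and 7.69% PU.1. Among the 10 starts of the 7 genes, 5 held a match to any of the 4 motifs and 5 held none. A match is only a run of letters, and binding was not measured.

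The values are normalized counts, in which every lane had been multiplied by 1 factor from control probes and housekeeping genes. The lanes of Kupffer cells held fewer counted molecules (84401 to 145662 per sample) than those of monocytes (162988 to 348248), and their factors were larger, 1.30 to 2.17 against 0.554 to 1.13. A gene under the background of its lane, the highest negative control, is listed at that background. By the values listed, this was the case where either the count or the normalized count was under it, so the normalized count was below the higher of the background and the background times the factor. That limit was 5.63 to 27 in monocytes against 11.7 to 30.4 in Kupffer cells. Monocyte sample 2 differed from the other monocyte samples, with a background of 5 against 16 to 27 and a factor of 1.13 against 0.554 to 0.715. In that sample 26 genes were at the background, against 68 to 79 in the other monocyte samples. Differences were tested on log2(normalized count + 1) with limma, with p-values adjusted for all 248 genes by the Benjamini-Hochberg method, and a log2 fold change above 0 means a higher value in Kupffer cells.

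Of the 7 genes, 3 were called higher in Kupffer cells at an adjusted p under 0.05 (Il1r1, Il18rap and Il18), none was called lower, and 4 were not called (Il1a, Il1b, Il1rn and Il1rap). At an unadjusted p under 0.05 Il1rn also passed, on values that are mostly background. Of all genes, 35.1% were called higher, 21.4% lower and 56.5% either way, which makes the 3 of 7 an ordinary share for this panel. With each sample rescaled to its median gene, 68 genes of the panel were higher and 107 lower, and after quantile normalization 63 and 69, in place of 87 and 53. In the 3 called genes every Kupffer cell sample lay above every monocyte sample, as in 25.8% of all genes (41.5% in either direction). The median log2 fold change was 0.12 over the 7 genes and 0.05 over the panel. In such bulk samples, fewer cells of a type and less RNA per cell cannot be told apart.

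**Figure D1:**
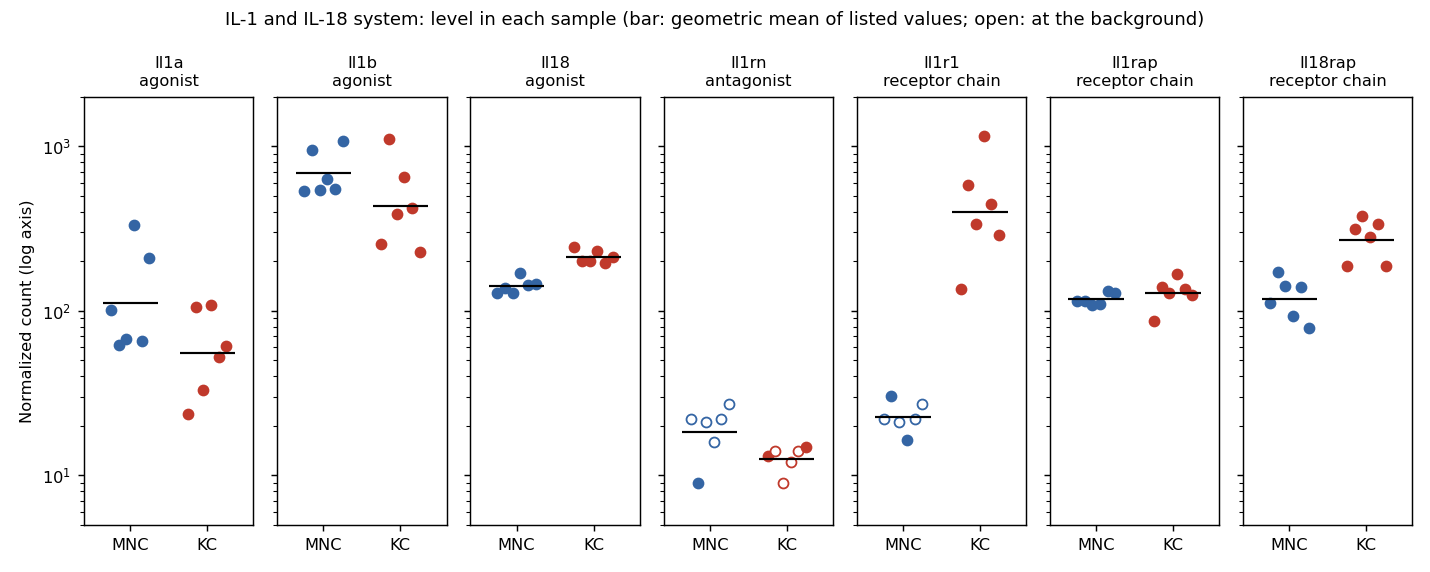
Normalized count of each gene on a log axis in the 6 monocyte (MNC) and 6 Kupffer cell (KC) samples, with bars at the geometric mean of the listed values and open points at the background. Kupffer cells lie above monocytes without overlap in Il18, Il1r1 and Il18rap, and Il1rn is at or near the background in both cell types.

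Among the agonists, Il18 was the steady one. Its lowest, median and highest normalized counts were 128, 140.6 and 170.1 in monocytes and 196, 207 and 244 in Kupffer cells. The groups did not overlap. The means were 142 ± 15.5 and 214 ± 19.1 (SD, n = 6 samples each), a difference larger than the spread (log2 fold change 0.59, standard error 0.12, adjusted p = 0.000646 from limma). It passed the threshold in all 23 settings tried, at log2 fold changes of 0.32 to 0.69 and adjusted p up to 0.0474, the highest with samples rescaled to the median. In counted molecules, before the factor of the lane, Il18 had 122 to 280 in monocytes against 90 to 187 in Kupffer cells, so its direction rests on the normalization between lanes.

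Il1b, the main secreted form of IL-1 in macrophages, had 537, 590.5 and 1081 normalized counts (lowest, median, highest) in monocytes and 226, 404 and 1104 in Kupffer cells. Of the Kupffer cell samples, 4 of 6 lay below every monocyte sample, but sample 4 stood within the range of monocytes and sample 2 was the highest of all 12. The means were 713 ± 238 and 507 ± 329 (SD, n = 6 samples each), with a log2 fold change of -0.65 (95% interval -1.42 to 0.12, adjusted p = 0.12 from limma). Without Kupffer cell sample 2 the log2 fold change was -0.92 and the adjusted p 0.0169. Rescaling of samples to their median (adjusted p = 0.0225) and quantile normalization (0.0381) likewise gave a call of lower in Kupffer cells. Over all settings tried, the adjusted p lay between 0.0169 and 0.251.

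Il1a, the form that is active without inflammasome cleavage, had 61.9, 84.4 and 331 normalized counts (lowest, median, highest) in monocytes and 23.5, 56.7 and 108 in Kupffer cells. Monocyte samples 4 and 6 stood at 331 and 209, sample 1 at 101, and the other 3 between 61.9 and 67.3. Kupffer cell samples 2 and 4 were the highest of their group, at 106 and 108. The log2 fold change of -0.99 (95% interval -2.04 to 0.05, adjusted p = 0.0904 from limma) did not exceed this spread. The exceptions, with a call of lower in Kupffer cells, were rescaling to the median (adjusted p = 0.0302), quantile normalization (0.014) and leaving out monocyte sample 2 (0.0473). Over all settings tried, the adjusted p lay between 0.014 and 0.188.

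The antagonist Il1rn could not be measured in most samples. It was at the background in 5 of 6 monocyte and 4 of 6 Kupffer cell samples. The samples above it were monocyte sample 2 with 8 counted molecules and Kupffer cell samples 1 and 6 with 10 and 7, the last equal to the background of its lane. Their normalized counts were 9.01, 13.1 and 14.8, and those of the other samples were below limits of 16 to 27 in monocytes against 17.5 to 30.4 in Kupffer cells. Monocyte sample 2 had the lowest background of all lanes, 5, so its 9.01 lies under the limits of the other monocyte samples. The fitted difference (log2 fold change -0.52, adjusted p = 0.066 from limma) is not read as a difference in Il1rn. It compares mainly the backgrounds of the lanes, and it turned to 0.65 when these were multiplied by the factor. Il1rn mRNA was thus detected in only a few samples, at a few counted molecules, and its level could not be compared between the cell types.

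Il1r1, the signalling chain of the IL-1 receptor, showed the largest difference of the 7 genes. In monocytes it was at the background in 4 of 6 samples, and samples 2 and 4 had 30.4 and 16.4 normalized counts from 27 counted molecules each. In Kupffer cells the lowest, median and highest values were 136, 392.5 and 1152. Sample 1 was the lowest and sample 4 the highest, an 8.49-fold range between pools of one cell type. With the monocyte samples at their limits, the ratio of geometric means was at least 17.5-fold, and the lowest Kupffer cell sample exceeded the highest monocyte sample by 4.46-fold. The log2 fold change from limma was 4.07 (standard error 0.39, adjusted p = 9.94e-07). It ranged from 3.76 to 4.38 when single samples were omitted.

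Il1rap, the accessory chain that IL-1R1 needs for signalling, did not share this difference. It had 109, 114.6 and 133 normalized counts (lowest, median, highest) in monocytes and 86.1, 132 and 168 in Kupffer cells, and the groups overlapped. The log2 fold change was 0.12 (95% interval -0.21 to 0.44, adjusted p = 0.498 from limma), which leaves room for a difference of up to 0.44 on the log2 scale. Its sign was negative under rescaling to the median (-0.14) and quantile normalization (-0.19). Within Kupffer cells, sample 1 was the lowest and sample 4 the highest, as for Il1r1.

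Il18rap had 78.6, 126 and 172 normalized counts (lowest, median, highest) in monocytes and 188, 298 and 374 in Kupffer cells. All Kupffer cell samples were above all monocyte samples, although the gap between 172 and 188 was narrow. It was 2.28-fold higher in Kupffer cells (log2 fold change 1.19, standard error 0.23, adjusted p = 0.000619 from limma), and was called in all 23 settings tried, at log2 fold changes of 0.79 to 1.30. As for Il18, the counted molecules overlapped, with 142 to 236 in monocytes against 89 to 192 in Kupffer cells, and the direction rests on the normalization between lanes.

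**Figure D2:**
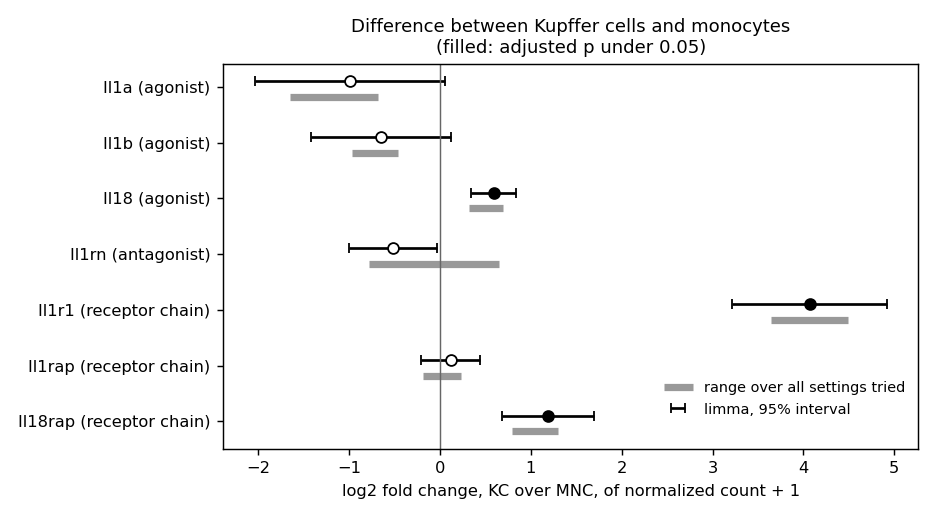
Log2 fold change (Kupffer cells over monocytes, normalized count + 1) of each gene with its 95% interval from limma, filled where the adjusted p is under 0.05, and in grey the range over all settings tried. The intervals of Il18, Il1r1 and Il18rap lie above 0. Il1rn, fitted mostly on values at the background, has a grey range from -0.78 to 0.65.

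Genes listed as markers of other cell types were set beside Il1r1 and Il18rap. The paper reads the complement genes among them as expressed by Kupffer cells. All 10 hepatocyte genes on the panel were called higher in Kupffer cells, beside 35.1% of all genes. These were C8a, C8b, C9, Hc, Crp, Mbl2, Kng1, Masp1, Masp2 and C6, which code for secreted plasma proteins. Their summed normalized counts were 63.1 to 270.0 in monocytes, where 7 of them never exceeded the background, and 4497 to 15348 in Kupffer cells. Flt1, a receptor of endothelial cells and the only gene of the endothelial and stellate list on the panel, did not exceed the background in 5 of 6 monocyte samples, while Kupffer cells had 52.2 to 151 normalized counts. Kupffer cell sample 1, the lowest in Il1r1, was also the lowest in Flt1 and in the hepatocyte sum. Sample 4, the highest in Il1r1, was the highest in Flt1 at 151 but had a hepatocyte sum of 11486, below those of samples 2 and 5 (15348 and 11853). Per 1000 normalized counts of the hepatocyte genes, Il1r1 stood at 30.2 to 39.9 in 5 Kupffer cell samples and at 100.3 in sample 4. The ratio of Il1r1 to Flt1 varied from 2.60 in Kupffer cell sample 1 to 7.63 in sample 4. Neither ratio was planned, and no test is given. The part of hepatocytes and endothelial cells in the Il1r1 difference was not tested.

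For Il18rap the comparable list is that of T and NK cells, of which Cd40lg, Ifng, Lta, Ltb and Il2 were on the panel. In Kupffer cells 3 of the 5 were called higher (Cd40lg, Ifng and Lta), and none lower, beside 35.1% and 21.4% of the panel. Il2 did not exceed the background in 5 of 6 monocyte samples. Their sum was 1572 to 2792 normalized counts in monocytes against 2649 to 4110 in Kupffer cells, of which Ltb made up 76.1% to 92.5%. Monocyte samples 6 and 4, the lowest in Il18rap (78.6 and 92.4), had the lowest sums (1572 and 1832), and Kupffer cell sample 3, the highest in Il18rap, had the highest. Per 1000 normalized counts of this list, Il18rap was 44.5 to 62.2 in monocytes against 63.7 to 102.2 in Kupffer cells. The groups again did not overlap, but the gap between 62.2, in monocyte sample 2, and 63.7 was narrow. Apart from values at the background, this ratio does not depend on the factor of the lane. It was chosen after the values were seen, so no test is given. With the share that Ltb holds, it is mainly a ratio to Ltb, which was not called (log2 fold change 0.33, adjusted p = 0.149 from limma). Ifng, Cd40lg and Lta had log2 fold changes of 3.53, 0.96 and 0.65, beside 1.19 for Il18rap. The part of T and NK cells in the Il18rap difference was not tested. Of the neutrophil list, Cxcr1 was at the background in 5 of 6 monocyte and all 6 Kupffer cell samples, and Cxcr2 was not called (adjusted p = 0.475). The B cell and platelet lists had no gene on the panel.

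**Figure D3:**
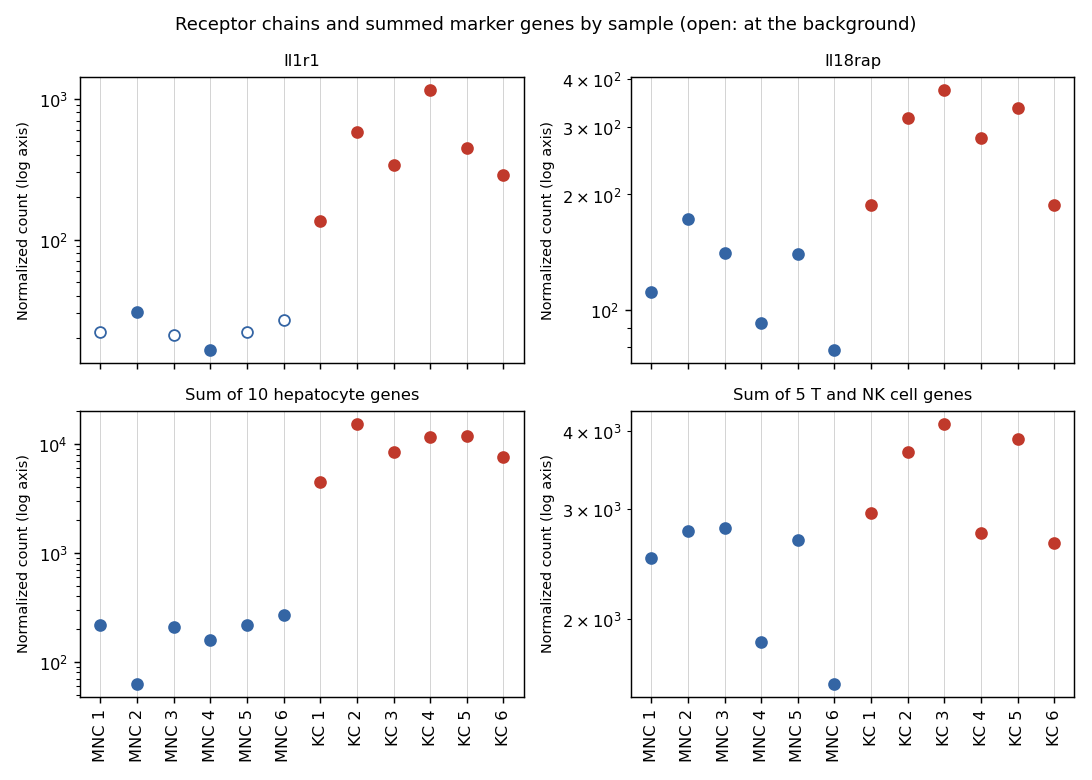
Normalized counts on log axes of Il1r1 and Il18rap in each of the 12 samples, above the summed normalized counts of 10 hepatocyte genes and of 5 T and NK cell genes in the same samples (open points: at the background). Kupffer cell sample 1 is the lowest of its group in Il1r1 and in the hepatocyte sum, and monocyte samples 4 and 6 are the lowest in both Il18rap and the T and NK cell sum.

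The labels were checked against macrophage markers on the panel. Itgb2, Tyrobp and Ccr2 were above the background in all 12 samples, with Itgb2 and Tyrobp lower in Kupffer cells (log2 fold changes -1.73 and -1.0). Of the Kupffer cell list, Cd163, a scavenger receptor of resident macrophages, was higher in Kupffer cells (log2 fold change 1.11, adjusted p = 0.00691 from limma). Its groups overlapped, with up to 110 normalized counts in monocytes and 87.4 to 309 in Kupffer cells. C1qa and C1qb of the same list were lower without overlap, with log2 fold changes of -2.17 and -1.82. Clec4f, Vsig4, Timd4, Cd5l and Marco, also on that list, were not on the panel.

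To compare the balance of the system without the factor of the lane, ratios of 6 pairs of the 7 genes were formed within each sample. Probes differ in efficiency, so only the difference of a ratio between cell types was tested, by a two-sided exact permutation test of log2 ratios over 924 assignments, adjusted over the 6 ratios. The ratio of Il1rn to Il1b, antagonist to agonist, was 0.00956 in monocyte sample 2, 0.0510 in Kupffer cell sample 1 and 0.0654 in Kupffer cell sample 6. In the other samples it was only bounded: below 0.0410, 0.0389, 0.0253, 0.0402 and 0.0250 in monocyte samples 1, 3, 4, 5 and 6, and below 0.0232, 0.0455, 0.0392 and 0.0722 in Kupffer cell samples 2, 3, 4 and 5. By the values as listed the cell types were not distinguishable (log2 difference 0.11, adjusted p = 0.835 by the exact permutation test), but 9 of the 12 ratios were limits. With the background multiplied by the factor of the lane the log2 difference was 1.34 (adjusted p = 0.0173 by the exact permutation test), so the call depends on how the background is listed. For Il1rn to Il1a, with the same 9 limits, the log2 difference was 0.46 as listed (adjusted p = 0.584 by the exact permutation test) and 1.70 with the background multiplied (adjusted p = 0.00649 by the same test). The factors were larger in Kupffer cells, so both multiplied results follow mainly from the lanes and do not compare Il1rn itself.

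The ratio of Il18 to Il1b had a lowest, median and highest value of 0.134, 0.238 and 0.269 in monocytes and 0.182, 0.492 and 0.954 in Kupffer cells. In Kupffer cells only sample 2, with the highest Il1b, fell within the range of monocytes. The ratio was 2.37-fold higher in Kupffer cells (log2 difference 1.25, adjusted p = 0.039 by the exact permutation test). This call was lost in 14 of the 17 alternatives, with adjusted p up to 0.123, among them leaving out any sample but Kupffer cell sample 2.

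The ratio of Il1a to Il1b did not separate the cell types (log2 difference -0.36, adjusted p = 0.584 by the exact permutation test), and monocyte sample 4, at 0.522, was the highest. Between the receptor chains, Il1r1 to Il1rap was 0.150 to 0.265 in monocytes, where 4 of 6 values were upper limits, and 1.58 to 6.86 in Kupffer cells. The groups did not overlap (log2 difference 4.01, adjusted p = 0.013 by the exact permutation test, from the smallest p that 924 assignments allow, 0.00216). For Il18rap to Il18 the values were 0.543 to 1.25 in monocytes against 0.770 to 1.86 in Kupffer cells, and the log2 difference of 0.60 did not pass (adjusted p = 0.16 by the exact permutation test).

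**Figure D4:**
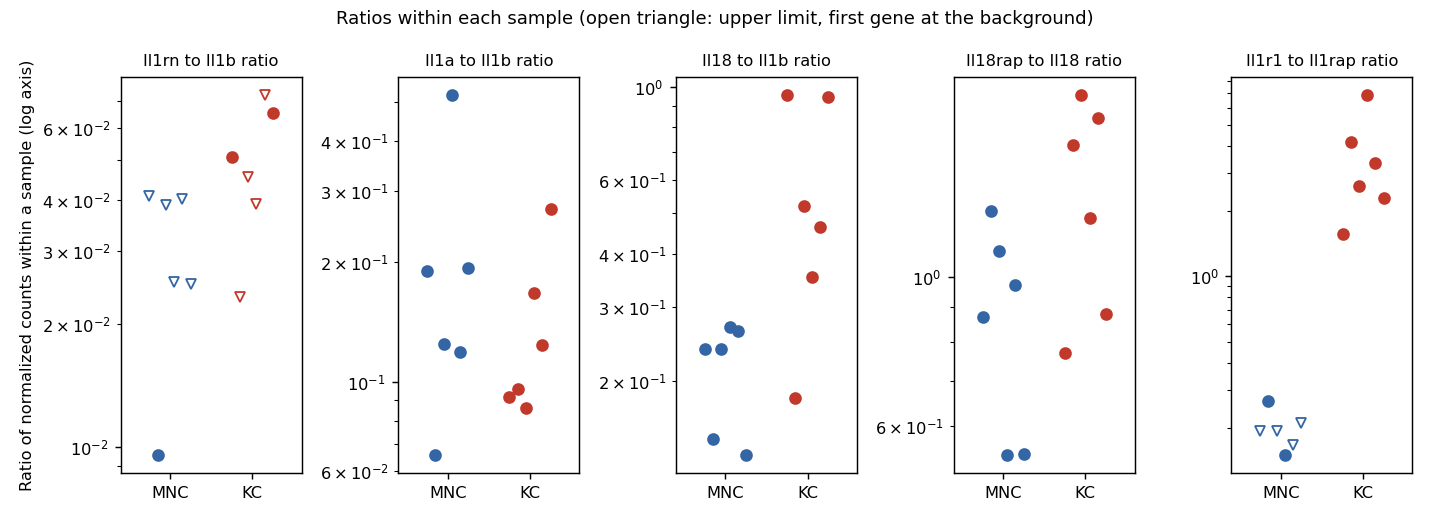
Ratio of normalized counts of 5 gene pairs within each sample on log axes, for monocytes (MNC) and Kupffer cells (KC), with open triangles where the first gene was at the background and the point is an upper limit. Only Il1r1 to Il1rap separates the cell types, at 1.58 to 6.86 in Kupffer cells against at most 0.265 in monocytes.

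The genes also differed in how far samples of one cell type varied. Among the 160 genes above the background in all 12 samples, the median SD between Kupffer cell samples was 0.35 on the log2 scale, and that between monocyte samples 0.22. Il1a and Il1b, with SDs of 0.87 and 0.85, ranked 4th and 5th of the 160 in Kupffer cells, and Il1a with 1.01 ranked 2nd in monocytes. Il18 varied less than the median gene in both cell types, with an SD of 0.13 in Kupffer cells (rank 153 of 160) and 0.15 in monocytes (rank 124).

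For the 5 genes measured in all samples, the most similar patterns were sought among the other 159 genes by Pearson's r of log2 values, after the mean of each cell type was removed (n = 12 samples). These values are a description of samples that share lanes, cell composition and normalization. Il1a ran closest to Cxcl1, a neutrophil-attracting chemokine gene (r = 0.96), then Cfb (0.90) and C4a (0.87) of the complement system. Il1b ran closest to Tlr4, the endotoxin receptor (r = 0.89), Mrc1, the mannose receptor (0.86), and Nlrp3 (0.84). Within Kupffer cells alone these 3 were at 0.93, 0.92 and 0.95, and within monocytes at 0.74, 0.60 and 0.56. Il18rap ran closest to Cd4 (r = 0.95), a surface protein of helper T cells, and to the NF-kB genes Nfkb1 (0.94) and Rela (0.92). Il1rap ran closest to the receptor gene Il6ra (0.88), Plcb1 (0.86) and Gnaq (0.85), and Il18 closest to Limk1 (0.68), Oas1a (0.66) and Nfe2l2 (0.64), the lowest values of the 5.

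Upstream of the cytokines, 3 genes of innate sensors on the inflammasome list were on the panel. Nlrp3, the sensor of the inflammasome that leads to the cleavage of IL-1β and IL-18, had 227.5 ± 62.6 normalized counts in monocytes against 63.0 ± 23.7 in Kupffer cells (SD, n = 6 samples each). All monocyte samples were above all Kupffer cell samples (log2 fold change -1.88, standard error 0.25, adjusted p = 2.72e-05 from limma). Nod2 was also lower in Kupffer cells (log2 fold change -0.72, adjusted p = 0.00754) and Nod1 higher (0.58, adjusted p = 0.00305), both peptidoglycan sensors. After quantile normalization Nod1 was no longer called (adjusted p = 0.426). None of the 12 further cytokine and receptor genes of the family that were looked for, such as Il1r2, Il18r1, Il18bp and Il33, was on the panel.

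Downstream of the receptors, 8 of 18 signalling genes were higher in Kupffer cells, 1 was lower (Tnfaip3, an inhibitor of NF-kB, at -0.42) and 9 were not called, with a median log2 fold change of 0.23, beside 35.1% of the panel called higher and 21.4% lower. Myd88, the adaptor shared by the IL-1 and IL-18 receptors, was not distinguishable, at 310.5 ± 29.9 normalized counts in monocytes against 352 ± 37.8 in Kupffer cells (log2 fold change 0.18, adjusted p = 0.195 from limma). After quantile normalization it was called lower (-0.28, adjusted p = 0.0228), and with samples rescaled to the median its log2 fold change was -0.08. The largest rises were those of Jun and Fos, the components of AP-1, with log2 fold changes of 2.31 and 1.96. The kinase genes Map2k6 (1.05), Map3k7 (0.83), which codes for TAK1, and Map2k4 (0.56) were higher without overlap. Map2k4 was not called with samples rescaled to the median (adjusted p = 0.0562) or after quantile normalization (0.832). The NF-kB genes Nfkb1, Rela and Relb were not called, with log2 fold changes of -0.12, 0.22 and 0.23.

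Of 16 genes that IL-1 or IL-18 signalling can induce, 6 were higher in Kupffer cells, 3 were lower and 7 were not called, with a median log2 fold change of -0.44. These shares are close to those of the panel, 35.1% higher and 21.4% lower. The higher genes were Crp, Ifng, Il17a, Tnf, Csf2 and Nos2, of which Il17a, Csf2 and Nos2 exceeded the background in only 1 monocyte sample each. That was sample 2, the lane with the lowest background. The lower genes were Cxcl2 (log2 fold change -4.81), Cxcl1 (-4.69) and Il6 (-1.99). Among the higher ones, Ifng, the classical product of IL-18 acting on T and NK cells, had 26.4 ± 4.61 normalized counts in monocytes (1 of 6 samples at the background) and 314 ± 41.1 in Kupffer cells (log2 fold change 3.53, standard error 0.14, adjusted p = 2.07e-10 from limma). Crp, an acute-phase gene of hepatocytes, stayed at the background throughout the monocyte samples (log2 fold change as listed 4.68). Ifng and Crp also belong to the marker lists above. Il23a was at the background in all 12 samples. Of 14 genes listed as early responders to cell isolation, 6 were on the panel. In Kupffer cells 5 of these 6 were called higher, beside 35.1% of the panel. They were Ccl4, Jun, Ccl3, Fos and Tnf (log2 fold changes 2.59, 2.31, 2.03, 1.96 and 1.26). Myc was not called (-0.41, adjusted p = 0.0607 from limma). The part of the digestion in these values cannot be told apart from the cell type.

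**Figure D5:**
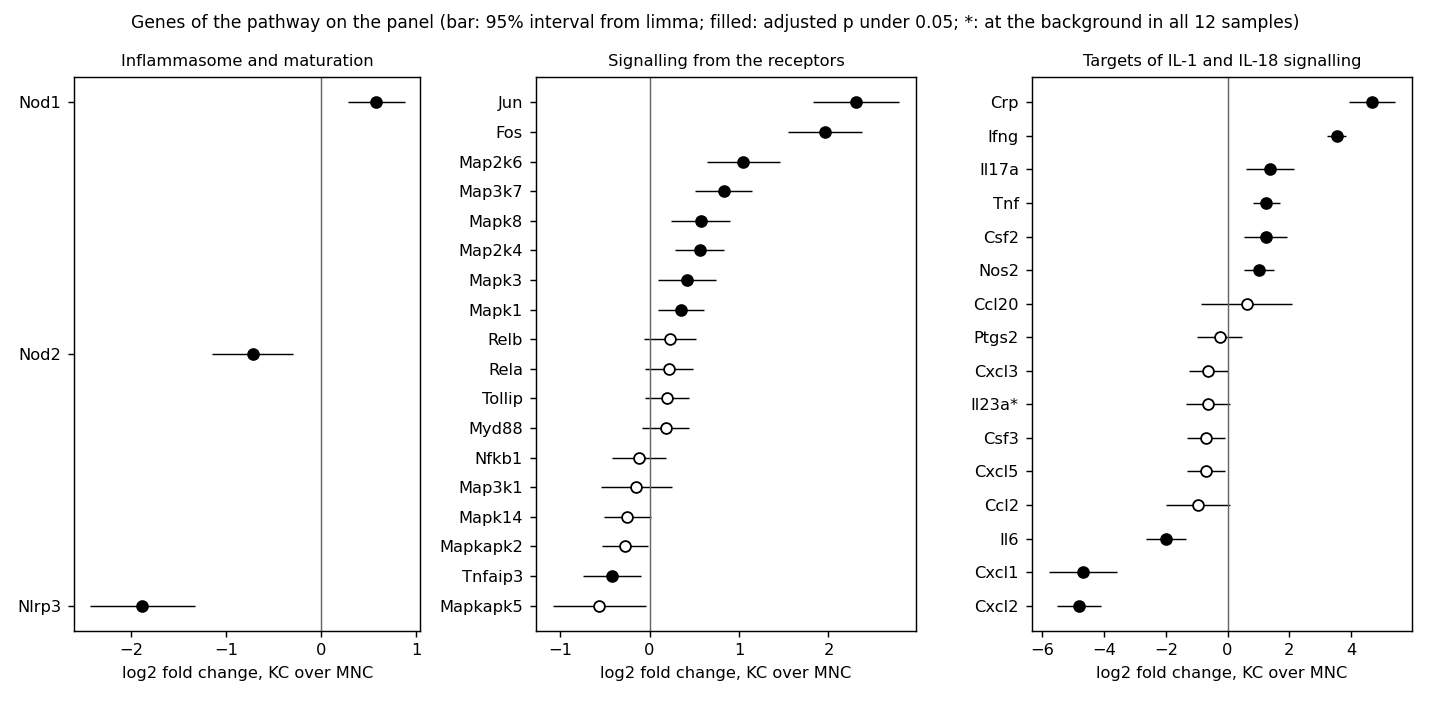
Log2 fold change (Kupffer cells over monocytes, normalized count + 1) with 95% intervals from limma for genes of the inflammasome list, of signalling from the receptors and of their targets, filled where the adjusted p is under 0.05 and with an asterisk where all 12 samples were at the background. Nlrp3, Cxcl1, Cxcl2 and Il6 are lower in Kupffer cells, and Jun, Fos, Ifng and Crp are higher.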

How the data were processed

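Each deposited value is a signal of 1 gene in 1 sample, a nanostring count that the authors normalized in nSolver 4.0 by positive controls and housekeeping genes (geometric means), with the background at the highest of 8 negative controls. Groups and replicate numbers came from the sample labels, and the 100 ng of RNA per reaction from the labels too. The factor of a lane was recovered as the step of which all its values above the background were whole multiples, within 0.02 normalized counts. Since genes under the background had been replaced, no count model was used. All 248 genes were tested with limma 3.58.1 (R 4.3.3) on log2(value + 1), two-sided, and ratios by exact permutation tests (Python 3.11.15). The limma steps were tested on simulated data. The precision is set by 6 samples per group and, for Il1rn and Il1r1, by the background. Pools were separate samples, but nothing states how mice were assigned to them, so p-values measure the spread between these samples.

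The 7 genes, the marker and pathway lists and the tests were chosen with earlier results of these data known. Named are the 7 genes, Myd88, Nlrp3, up to 5 called genes without overlap per pathway list, the 3 genes most like each of the 7, list genes at the background throughout, and markers. Genes named outside this rule (such as Nfkb1, Rela and Relb) were chosen after their values were seen. RefSeq (GRCm38.p6) served for names, which matched for 7 of 7, neighbours and promoter windows. The alternatives concerned the pseudocount (10 or none), the background, a filter on low values (6 or more of 12 samples above the background), the scaling, a replicate block, single samples left out and the test. Hprt, Tubb5 and protein measurements were not analysed here.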

Additional observations from a re-analysis of the deposited data

How the results depend on the processing

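The number of genes called higher stayed at 3 or 4 of 7 under all 22 alternatives (4 with the background multiplied by the factor, which added Il1rn). The number called lower, 0 as reported, was 3 with samples rescaled to the median (Il1a, Il1b and Il1rn), 2 after quantile normalization (Il1a and Il1b) and 0 to 2 with a sample left out: 2 without monocyte sample 2 (Il1a and Il1rn) and 1 without Kupffer cell sample 2 (Il1b). Each call of Il1rn, higher or lower, rests on values mostly at the background. The rescaling shifted the median gene by -0.26 on the log2 scale, and scaling without Gapdh by 0.103. Over the panel, 107 genes were called lower after rescaling and 86 without monocyte sample 2, against 53, and 140 higher with the background multiplied, against 87. Monocyte sample 2 was the lane with the lowest background. The log2 fold change of Il1rn turned to 0.65 with the background multiplied, that of Il1rap to -0.14 (rescaled) and -0.19 (quantile), and that of Myd88 to -0.08 and -0.28. With a common floor of 30.4 normalized counts and under the filter on low values Il1rn had no value.

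The log2 difference of the Il1rn to Il1b ratio was 1.34 with the background multiplied (adjusted p = 0.0173 by the exact permutation test), -0.17 by medians, and -0.19 to 0.35 with a sample left out. Negative values came without monocyte sample 2 (-0.19) or Kupffer cell samples 1 (-0.05) or 6 (-0.13). Of the other 5 ratios, 2 passed as reported, 3 with the background multiplied (adding Il1rn to Il1a, at 1.70, adjusted p = 0.00649 by the exact permutation test), 1 with a pseudocount of 10, 0 by medians and 1 to 2 with a sample left out, 1 being left without any sample other than Kupffer cell sample 2. With the background multiplied, both Il1rn ratios follow mainly from the factors of the lanes. For ratios, the setting without pseudocount is the one reported.

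The replicate numbers of the labels gave no clear sign of pairing. The deviations of same-numbered samples correlated at -0.229 to 0.404, and 2 of 6 monocyte samples correlated best with their own number. Such correlations cannot exclude that same-numbered samples were paired. With the replicate block, 3 genes were again higher and 0 lower, and 132 genes of the panel were called in place of 140. The block left 0 of the other 5 ratios past the threshold, with an adjusted p of 0.0938 by the exact permutation test for both Il18 to Il1b and Il1r1 to Il1rap. Their log2 differences stayed at 1.25 and 4.01, and 6 pairs allow no two-sided exact p under 0.0312 before adjustment, so the lost calls say nothing about stability. The Il1rn to Il1b difference under the block was 0.11. The causes were not tested. No sample stood out from its group by a gap test in any of 18 groups of values. The lane of monocyte sample 2 did differ in its background, 5 against 16 to 27 in the other monocyte samples.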
